A study of Mus musculus with 16 samples.

Results

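Paneth cells sit at the base of small intestinal crypts and release antimicrobial granules into the crypt lumen. The genes described here were chosen by name as Paneth cell granule genes other than the defensins: Lyz1, Pla2g2a, Ang4, Mmp7, Itln1, Mptx1, Mptx2 and Nupr1, which are 8 of the 49585 genes in the table of read counts. They were measured by RNA sequencing in 16 cultures of mouse small intestinal organoids, 4 in each of 4 groups, to ask how the response to the cytokine IL-22 depends on the autophagy gene Atg16l1. The WT group carried Atg16l1 fl/fl without villin-cre, and the KO group (Atg16l1dIEC, called dIEC here) carried the same floxed alleles together with villin-cre, which is active in intestinal epithelium. So the controls carry the floxed alleles too, and villin-cre is present only in the dIEC cultures. Each genotype was left untreated or given recombinant mouse IL-22 at 10 ng/ml for 24 h. The mice were 8 to 12 weeks old, backcrossed to C57BL/6 for at least 6 generations, with littermates as controls. The sample labels carry the numbers 1293 and 1294 for fl/fl and 1290 and 1292 for dIEC cultures, with 2 cultures per number and treatment. These numbers are read here as organoid lines, 2 per genotype, which the labels do not state, and every value by line rests on that reading. Within a group, the first line supplied replicates 1 and 2 and the second line replicates 3 and 4. A group's n = 4 is therefore 4 cultures from 2 lines, and p-values measure mostly the spread between cultures.

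Several of these products act on bacteria directly. Lysozyme cuts the cell wall polymer peptidoglycan, group IIA phospholipase A2 hydrolyses bacterial membrane phospholipids, and angiogenin 4 is a microbicidal ribonuclease. Matrilysin, the Mmp7 product, cuts pro-alpha-defensins to their active form in mouse Paneth cells, and intelectin and the mucosal pentraxins belong to families that bind glycans or other surface ligands of microbes. Nupr1 encodes a small stress-induced nuclear protein and not a granule protein, so the list's name describes 7 of its 8 members. IL-22 acts on epithelial cells through a receptor that activates STAT3.

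The cultures held 2135000 to 5574860 gene counts each (median 3499276.5), and values are given as CPM, the counts scaled to a common library total with TMM factors. Atg16l1 lay between 31.6 and 51.8 CPM in the 8 fl/fl cultures and between 0.289 and 5.97 CPM in the 8 dIEC cultures. Every culture thus matched its genotype label. The stromal gene Dcn and the T cell gene Cd3e had no count in any culture, and the summed level of 7 stromal markers did not exceed 1.61 CPM. The 7 immune markers summed to between 9.97 and 19.0 CPM, whereas 8 epithelial markers summed to between 5883 and 10712 CPM. The alpha-defensins, the classical Paneth cell products, summed to between 1162 and 6283 CPM, so Paneth cell transcripts were present in every group. In these bulk samples a lower value can mean fewer Paneth cells or less RNA per cell, and the 2 cannot be told apart.

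Of the 8 genes, 7 passed the filter on low counts and were tested with the other genes by edgeR's quasi-likelihood test, with p-values adjusted by Benjamini-Hochberg over 12559 genes and a threshold of 0.01. Mptx1 did not pass. The genes were chosen with earlier results of these data known, so shares of all tested genes stand beside their counts as description only. IL-22 raised Mmp7, Pla2g2a, Mptx2 and Nupr1 in fl/fl organoids, so 4 of 7 were higher and 0 lower, where 10.6% of all tested genes were higher and 10.2% lower. In dIEC organoids 4 of 7 rose and 0 fell, against 9.83% and 7.65% of all tested genes, and they were the same 4 genes. The median log2 fold change of the 7 was 1.21 in fl/fl and 1.51 in dIEC organoids, beside -0.05 and -0.01 for all tested genes. Both medians are the values of Nupr1, which does not encode a granule protein and is 1 of the 4 that rose. Lyz1, Itln1 and Ang4 did not pass in either genotype.

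Loss of Atg16l1 went with lower levels. In untreated organoids 4 of 7 genes (Mptx2, Nupr1, Ang4 and Itln1) were lower in dIEC than in fl/fl and 0 were higher, where 5.98% of all tested genes were lower and 3.78% higher. Under IL-22, Ang4, Itln1, Nupr1 and Mmp7 were lower in dIEC and 0 of the 7 were higher, against 9.84% and 9.91% of all tested genes. The median log2 difference of the 7 was -0.87 in untreated and -0.70 in treated organoids, beside -0.02 and 0.01 for all tested genes. The IL-22 effect itself differed between genotypes for 1 gene, Mptx2, with 0 of the 7 in the other direction. Over all tested genes 0.00796% passed in each direction, which is 1 gene each. The 1 gene that passed on the side of Mptx2 was Mptx2 itself, so this share is no separate background for it. At an unadjusted p under 0.05, and by DESeq2 and limma-voom, the counts of 0 in these comparisons were also 0. The comparisons share cultures, and the list was chosen with earlier results known, so the values are given side by side as description. With the 2 cultures of each line summed, which leaves 2 lines per group, 0 of the 7 passed as lower in untreated dIEC organoids and 1 (Itln1) under IL-22, while 3 of 7 still rose with IL-22 in each genotype.

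**Figure D1:**
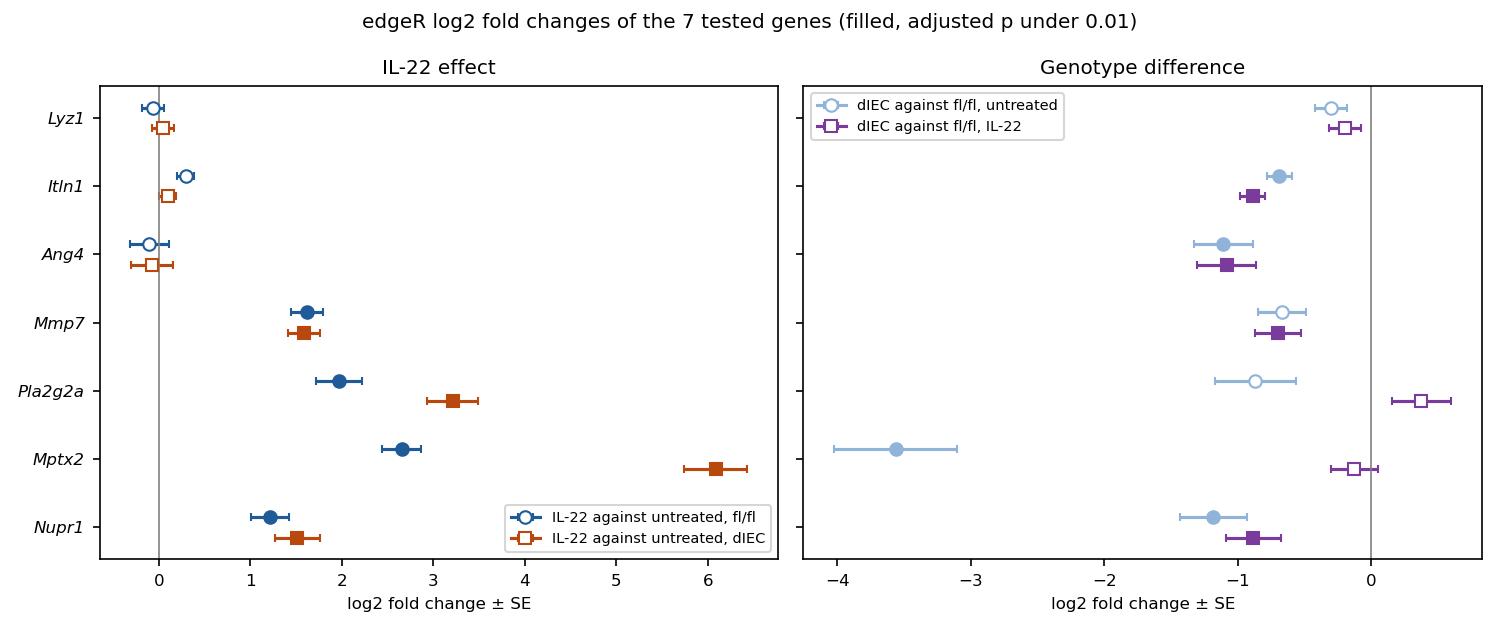
edgeR log2 fold changes with their SE for the 7 tested genes, for IL-22 against untreated organoids (left) and dIEC against fl/fl organoids (right). Filled symbols mark an adjusted p under 0.01. Mmp7, Pla2g2a, Mptx2 and Nupr1 lie to the right of 0 on the left panel in both genotypes, and Mptx2 in untreated organoids lies farthest to the left on the right panel, at -3.56.

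**Figure D2:**
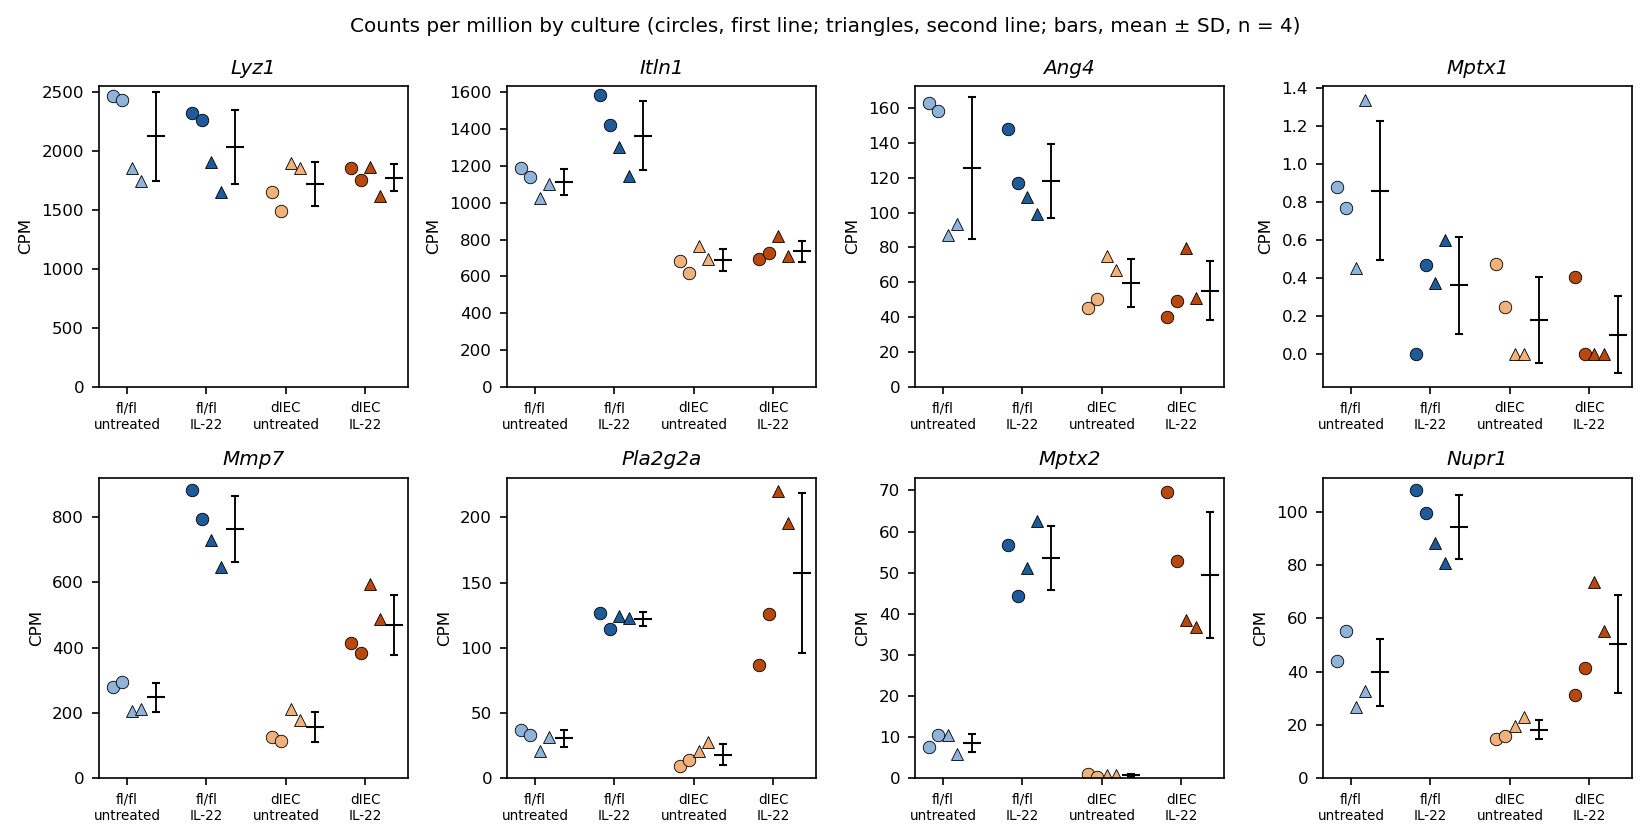
CPM of each of the 8 genes in every culture, with circles for the first line of a genotype, triangles for the second, and bars for mean ± SD (n = 4 cultures). The treated and untreated cultures of Mmp7, Pla2g2a, Mptx2 and Nupr1 do not overlap within a genotype, whereas those of Lyz1, Itln1 and Ang4 do.

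Lyz1 encodes the lysozyme of Paneth cells and was the most abundant of the 8 genes. It lies on the minus strand at chr10:117287797-117292868 (GRCm38). In untreated fl/fl cultures it was counted at 2464, 2429, 1855 and 1747 CPM, and under IL-22 at 2325, 2259, 1905 and 1648 CPM. In dIEC cultures it was at 1650, 1493, 1895 and 1853 CPM untreated and at 1853, 1753, 1866 and 1620 CPM under IL-22. The cultures of line 1293 were the highest in each treatment, and all 4 groups overlapped. The log2 effect of IL-22 was -0.06 ± 0.12 (SE) in fl/fl and 0.04 ± 0.12 in dIEC organoids (edgeR adjusted p = 0.734 and 0.841). The log2 difference of dIEC from fl/fl was -0.30 ± 0.12 untreated and -0.20 ± 0.12 under IL-22 (edgeR adjusted p = 0.0835 and 0.22). Without line 1294 these differences were -0.51 and -0.37 and passed the threshold (edgeR adjusted p = 0.000852 and 0.0072), so this value depends on which fl/fl line is used.

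The neighbouring gene Lyz2, which encodes the lysozyme of macrophages, lies 5.475 kb away. It had 0 to 16 counts per culture, where Lyz1 had 4093 to 10146, although 16.1% of the 50-base words in Lyz1 transcripts also occur in Lyz2. The 250 bases before the RefSeq starts of the 2 genes (GRCm38.p6) aligned with 79.4% identity. They are shown because 2 genes with such similar upstream sequence stood so far apart, with capitals for the longest run that both hold, which is 50 bases long and ends at the RefSeq start. GENCODE places the start of Lyz2 farther out, so that 49 of these bases lie inside the annotated Lyz2 gene. The Lyz1 window is at chr10:117292869-117293118 and the Lyz2 window at chr10:117282273-117282522, both on the minus strand.
Lyz1: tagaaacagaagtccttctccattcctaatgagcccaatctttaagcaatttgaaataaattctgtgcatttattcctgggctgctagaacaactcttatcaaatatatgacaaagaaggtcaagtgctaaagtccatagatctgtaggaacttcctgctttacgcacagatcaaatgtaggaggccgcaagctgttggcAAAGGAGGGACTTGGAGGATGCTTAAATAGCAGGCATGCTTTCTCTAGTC
Lyz2: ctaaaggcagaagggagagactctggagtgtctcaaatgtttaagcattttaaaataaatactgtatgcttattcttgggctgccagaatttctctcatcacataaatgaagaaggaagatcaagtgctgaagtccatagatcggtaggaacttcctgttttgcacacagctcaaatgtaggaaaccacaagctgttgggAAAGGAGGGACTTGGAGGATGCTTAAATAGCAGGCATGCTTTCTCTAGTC

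Pla2g2a encodes the secreted group IIA phospholipase A2. It lies on the plus strand at chr4:138831857-138835186 within the span of Pla2g5, which is on the opposite strand, and the 2 genes share no exon bases. The annotation classes it as a polymorphic pseudogene, because the C57BL/6 strain carries a disrupted allele, so its transcript level does not give a level of enzyme. It was at 37.1, 32.9, 21.3 and 31.3 CPM in untreated fl/fl cultures and at 126, 115, 124 and 123 CPM under IL-22. In dIEC cultures it was at 9.67, 14.0, 20.9 and 27.8 CPM untreated and at 87.1, 126, 220 and 196 CPM under IL-22. Every treated culture was above every untreated one, and within dIEC the second line, 1292, was the higher in both treatments. The rise was 3.91-fold in fl/fl organoids (log2 1.97 ± 0.25) and 9.25-fold in dIEC organoids (log2 3.21 ± 0.28), with edgeR adjusted p = 7.91e-06 and 4.23e-08.

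The difference between these 2 Pla2g2a effects was 1.24 ± 0.38 on the log2 scale and did not pass the threshold (edgeR adjusted p = 0.408). With organoid line as a replicate block it was 1.18 and passed (edgeR adjusted p = 0.000594), but it did not pass with line as a random effect (limma-voom adjusted p = 0.12) or with the cultures of a line summed (edgeR adjusted p close to 1). By line the rise was 3.44-fold and 4.70-fold in fl/fl and 8.998-fold and 8.53-fold in dIEC organoids. The levels of the genotypes overlapped both untreated (log2 difference -0.87 ± 0.31) and under IL-22 (0.37 ± 0.22), and neither difference passed (edgeR adjusted p = 0.0503 and 0.207). Without line 1290 the difference under IL-22 was 0.76 and passed (edgeR adjusted p = 0.00093), and without line 1292 it was -0.18. Without line 1292 the untreated difference was -1.40 and passed (edgeR adjusted p = 0.0011). Of its relatives, Pla2g2f rose from 11.8 to 35.8 CPM with IL-22 in fl/fl and from 8.84 to 29.4 CPM in dIEC organoids (edgeR adjusted p = 3.68e-06 and 2.59e-06), and Pla2g5 rose in fl/fl organoids from 72.8 to 150 CPM (edgeR adjusted p = 8.53e-05). In dIEC organoids Pla2g5 went from 68.4 to 103 CPM and did not pass (edgeR adjusted p = 0.0131).

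Ang4 encodes angiogenin 4, a ribonuclease of Paneth cell granules, and lies on the minus strand at chr14:51763878-51773590. It was at 163, 158, 87.0 and 93.4 CPM in untreated fl/fl cultures and at 148, 117, 109 and 98.9 CPM under IL-22. In dIEC cultures it was at 45.3, 50.5, 74.8 and 67.3 CPM untreated and at 40.1, 49.4, 79.5 and 51.2 CPM under IL-22. All 8 dIEC cultures were below all 8 fl/fl cultures, and treated and untreated cultures overlapped within each genotype. Ang4 was 2.16-fold lower in untreated dIEC organoids (log2 -1.11 ± 0.22, edgeR adjusted p = 0.00175) and 2.12-fold lower under IL-22 (log2 -1.09 ± 0.22, edgeR adjusted p = 0.00102). The IL-22 effect was -0.10 ± 0.21 in fl/fl and -0.08 ± 0.23 in dIEC organoids (edgeR adjusted p = 0.745 and 0.847). The untreated difference was -0.64 without line 1293, -0.84 without line 1290 and -0.99 without untreated dIEC replicate 1, none of which passed (edgeR adjusted p = 0.0566, 0.0564 and 0.0102). The difference under IL-22 was -0.85 without line 1290 and did not pass (edgeR adjusted p = 0.0322). Its relative Ang was at 3.54 to 14.0 CPM with no call in any of the comparisons, and Rnh1, which encodes the ribonuclease inhibitor, rose 1.64-fold in fl/fl and 1.70-fold in dIEC organoids with IL-22 (edgeR adjusted p = 5.01e-07 and 1.87e-07).

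Mmp7 encodes matrilysin, the protease that processes alpha-defensins, and lies on the plus strand at chr9:7692090-7699585. It was at 280, 294, 208 and 212 CPM in untreated fl/fl cultures and at 883, 793, 730 and 646 CPM under IL-22. In dIEC cultures it was at 125, 115, 212 and 179 CPM untreated and at 414, 384, 594 and 486 CPM under IL-22. Treated cultures were 3.06-fold higher in fl/fl (log2 1.62 ± 0.18, edgeR adjusted p = 1.02e-06) and 3.00-fold higher in dIEC organoids (log2 1.59 ± 0.18, edgeR adjusted p = 1.41e-06), with no overlap in either genotype. The difference between these effects was -0.03 ± 0.25 on the log2 scale (edgeR adjusted p = 0.998).

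The level of Mmp7 was 1.62-fold lower in dIEC than in fl/fl organoids under IL-22 (log2 -0.70 ± 0.17, edgeR adjusted p = 0.00395), with no overlap. The untreated difference was of like size, -0.67 ± 0.18, but 1 dIEC culture reached into the fl/fl range and the adjusted p of 0.0118 (edgeR) missed the threshold. It passed by DESeq2 (-0.66, adjusted p = 0.00345), by limma-voom (-0.72, adjusted p = 0.0045) and by edgeR without the filter on low counts (-0.65, adjusted p = 2.28e-09), and did not pass with the cultures of a line summed (edgeR adjusted p = 0.167). The call under IL-22 was lost without line 1290 (-0.50), without line 1293 (-0.58), and without treated fl/fl replicate 1 (-0.65) or treated dIEC replicate 1 (-0.64) or 2 (-0.62). The untreated difference passed without line 1292 (-1.05), line 1294 (-0.88), untreated fl/fl replicate 3 (-0.74) or untreated dIEC replicate 3 (-0.84). The exons of Mmp7 share 123 bases with AV064505 on the opposite strand, whose level followed Mmp7 with r = 0.990 over the 16 cultures at 39.9 to 301 CPM. Since the strand setting of the counting was not given in the sources used here, reads of the 2 genes may not be fully separated. Timp1, which encodes an inhibitor of matrix metalloproteinases, had 0 to 2 counts per culture. The relative Mmp15 fell with IL-22 in dIEC organoids from 63.5 to 27.9 CPM (log2 -1.13 ± 0.28, edgeR adjusted p = 0.00453) and was not called in fl/fl organoids.

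Itln1 encodes intelectin-1, a lectin made by Paneth and goblet cells that binds microbial glycans, and lies on the minus strand at chr1:171518122-171535294. It was at 1191, 1139, 1025 and 1102 CPM in untreated fl/fl cultures and at 1587, 1425, 1306 and 1144 CPM under IL-22. In dIEC cultures it was at 683, 621, 766 and 692 CPM untreated and at 693, 725, 821 and 710 CPM under IL-22. All dIEC cultures were below all fl/fl cultures. Itln1 was 1.61-fold lower in untreated dIEC organoids (log2 -0.69 ± 0.09, edgeR adjusted p = 7.08e-05) and 1.85-fold lower under IL-22 (log2 -0.89 ± 0.09, edgeR adjusted p = 2.5e-06). Both calls held without each culture and without each line in turn. After summing the cultures of each line, the untreated difference did not pass (-0.70, edgeR adjusted p = 0.0294). The log2 effect of IL-22 was 0.29 ± 0.09 in fl/fl organoids (edgeR adjusted p = 0.0209) and 0.10 ± 0.09 in dIEC organoids (edgeR adjusted p = 0.496). With line as a replicate block the effect in fl/fl organoids was 0.29 and passed the threshold (edgeR adjusted p = 0.000874), and it also passed without treated fl/fl replicate 4 (0.37, edgeR adjusted p = 0.00436). The same effect passed by DESeq2 (0.31, adjusted p = 0.00685) and by limma-voom with line as a random effect (0.28, adjusted p = 0.00241). It passed too without the filter on low counts (0.30, edgeR adjusted p = 0.00889), but not with RLE factors (0.31, edgeR adjusted p = 0.015). With the cultures of a line summed it did not pass (0.29, edgeR adjusted p = 0.14).

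Mptx2 encodes a mucosal pentraxin, of the family of C-reactive protein, and lies on the minus strand at chr1:173274382-173277777. It was at 7.60, 10.5, 10.4 and 5.89 CPM in untreated fl/fl cultures and at 56.6, 44.4, 51.1 and 62.6 CPM under IL-22. In untreated dIEC cultures it was near the limit of detection, at 0.943, 0.246, 0.804 and 0.831 CPM from 4, 1, 2 and 2 counts. Under IL-22 it was at 69.7, 52.8, 38.4 and 36.8 CPM in dIEC cultures, which overlapped the treated fl/fl cultures.

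The untreated dIEC cultures were thus below every other culture for Mptx2, at a level 11.8-fold lower than untreated fl/fl (log2 -3.56 ± 0.46, edgeR adjusted p = 4.52e-05). With IL-22 the level rose 6.28-fold in fl/fl (log2 2.65 ± 0.22, edgeR adjusted p = 2.21e-08) and by 6.09 ± 0.34 on the log2 scale in dIEC organoids (edgeR adjusted p = 8.58e-11). The ratio of summed counts in dIEC organoids, 612 treated against 9 untreated scaled by total counts, was 64.9 with an exact 95% interval of 34.0 to 143, which covers counting error only. Under IL-22 the log2 difference of dIEC from fl/fl was -0.13 ± 0.17 (edgeR adjusted p = 0.607), and without line 1292 it was 0.19.

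The IL-22 effect on Mptx2 was 3.44 ± 0.51 larger on the log2 scale in dIEC than in fl/fl organoids (edgeR adjusted p = 0.00958). It did not pass with the cultures of a line summed (3.47, edgeR adjusted p = 0.993), with line as a random effect (3.29, limma-voom adjusted p = 0.0746) or with RLE factors (3.42, edgeR adjusted p = 0.0111). By line the rise was 5.59-fold and 6.97-fold in fl/fl and 103-fold and 46.0-fold in dIEC organoids. The p of the main fit lies close to the threshold, and the difference rests on 9 counts in untreated dIEC cultures. Over the fits that left out 1 culture or 1 line the difference ran from 2.81 to 3.93 and its edgeR adjusted p from 0.0046 to 0.146, and it stayed past the threshold only without treated fl/fl replicate 4 or treated dIEC replicate 1 or 4.

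**Figure D3:**
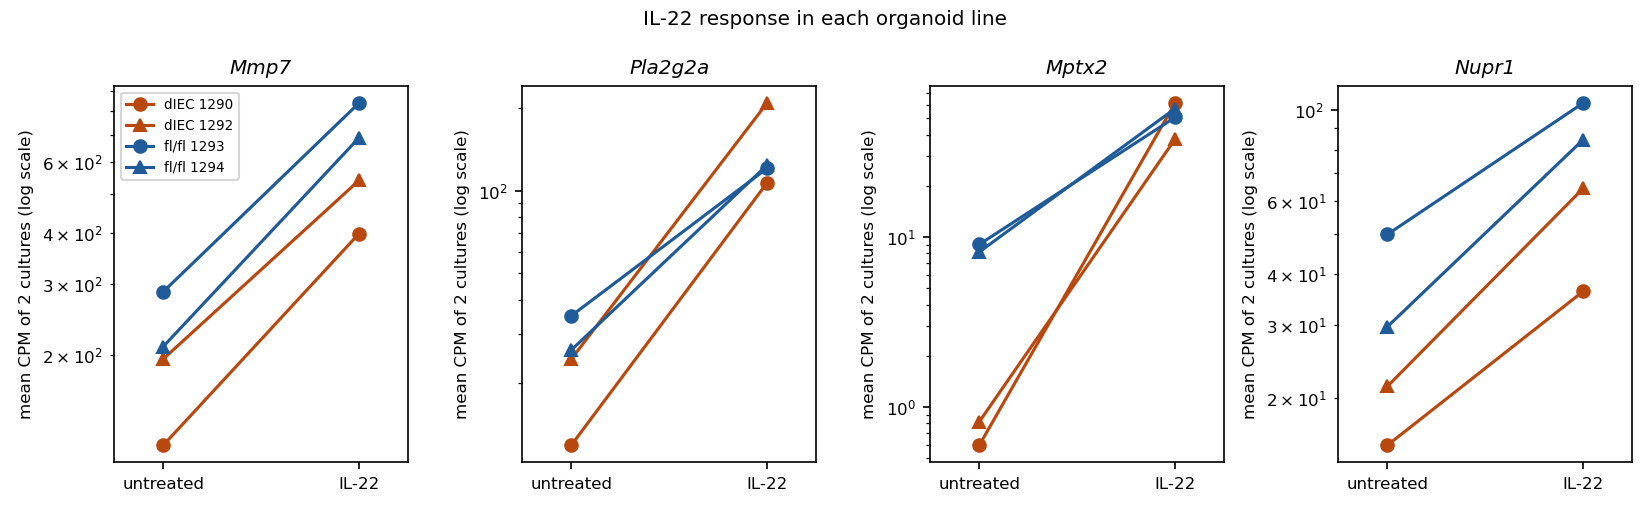
Mean CPM of the 2 cultures of each organoid line, untreated and under IL-22, on log axes, for the 4 genes that rose in both genotypes. Mmp7 and Nupr1 rise along nearly parallel lines in the 4 organoid lines, whereas the Mptx2 lines of dIEC organoids start below 1 CPM and meet those of fl/fl organoids under IL-22.

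Mptx1, the other mucosal pentraxin gene, lies on the plus strand at chr1:174330518-174332873, 1053 kb from Mptx2. It had 12 counts over the untreated fl/fl cultures (3, 3, 1 and 5), 6 under IL-22 (0, 2, 2 and 2), 3 in untreated dIEC cultures (2, 1, 0 and 0) and 1 under IL-22 (1, 0, 0 and 0). No comparison of Mptx1 reached p = 0.05 in the two-sided exact permutation test of log2 CPM, 4 cultures against 4, whose smallest possible p is 0.0286. The lowest p was 0.0571, for untreated dIEC against fl/fl, and the IL-22 effect gave 0.0857 in fl/fl and 0.714 in dIEC organoids. The IL-22 effect on Mptx1 was therefore not detectable at this depth. The pentraxin genes Crp and Apcs had at most 5 and 1 counts in a culture.

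Mptx1 and Mptx2 share 134 of the 50-base words in their transcripts, 17.9% and 18.0% of each. Whether any reads could not be placed on 1 of them alone was not measured. The 250 bases upstream of their RefSeq starts aligned with 72.8% identity over 272 columns. They are shown because 1 gene of the pair rose with IL-22 while the other stayed at a few counts, with capitals for the longest run that both hold, 21 bases. The Mptx1 window is at chr1:174330268-174330517 on the plus strand and the Mptx2 window at chr1:173277757-173278006 on the minus strand. The last 21 bases of the Mptx2 window lie inside the gene as GENCODE annotates it.
Mptx1: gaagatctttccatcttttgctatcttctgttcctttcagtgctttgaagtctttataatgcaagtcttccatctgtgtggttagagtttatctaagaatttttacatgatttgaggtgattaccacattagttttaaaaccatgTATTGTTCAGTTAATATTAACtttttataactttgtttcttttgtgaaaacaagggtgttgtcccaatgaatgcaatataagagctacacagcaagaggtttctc
Mptx2: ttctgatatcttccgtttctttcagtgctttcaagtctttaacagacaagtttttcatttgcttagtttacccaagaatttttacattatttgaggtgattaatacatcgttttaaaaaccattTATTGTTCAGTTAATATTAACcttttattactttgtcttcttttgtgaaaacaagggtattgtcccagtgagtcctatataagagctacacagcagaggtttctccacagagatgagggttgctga

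Nupr1 encodes nuclear protein 1, a small chromatin-associated protein induced by cell stress, and lies on the minus strand at chr7:126623249-126630861. It was at 44.1, 55.4, 26.8 and 32.6 CPM in untreated fl/fl cultures and at 108, 99.3, 88.0 and 80.9 CPM under IL-22. In dIEC cultures it was at 14.6, 15.99, 19.7 and 22.8 CPM untreated and at 31.2, 41.2, 73.4 and 55.3 CPM under IL-22. None of the 4 comparisons between 2 groups overlapped. Nupr1 rose 2.32-fold with IL-22 in fl/fl organoids (log2 1.21 ± 0.21, edgeR adjusted p = 0.000172) and 2.85-fold in dIEC organoids (log2 1.51 ± 0.24, edgeR adjusted p = 9.64e-05), and the effects differed by 0.30 ± 0.32 (edgeR adjusted p = 0.909). With the cultures of a line summed, these 2 rises did not pass (edgeR adjusted p = 0.0283 and 0.0192).

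Nupr1 was 2.27-fold lower in untreated dIEC organoids (log2 -1.18 ± 0.25, edgeR adjusted p = 0.00262) and 1.85-fold lower under IL-22 (log2 -0.89 ± 0.20, edgeR adjusted p = 0.00272). The untreated call was lost without line 1290 (-0.94), line 1293 (-0.76), untreated fl/fl replicate 2 (-0.98) or untreated dIEC replicate 1 (-1.08) or 2 (-1.12). The call under IL-22 was lost without line 1290 (-0.55), line 1293 (-0.76) or treated dIEC replicate 2 (-0.80). Nupr1 is a known target of the stress factor ATF4. Of 10 tested target genes of ATF4 and CHOP, 8 rose and 0 fell with IL-22 in fl/fl organoids and 7 rose and 0 fell in dIEC organoids. Over all tested genes 10.6% rose and 10.2% fell in fl/fl, and 9.83% rose and 7.65% fell in dIEC organoids. The median log2 fold change of the 10 was 0.52 and 0.50. Whether ATF4 had a part in the rise of Nupr1 was not tested. Slc7a11, a cystine transporter, rose by 0.98 and 1.17 on the log2 scale (edgeR adjusted p = 3e-06 and 1.77e-07), and Trib3 by 0.93 and 0.92 (edgeR adjusted p = 1.61e-05 and 2.24e-05). Between genotypes the calls were divided: in dIEC organoids 2 of the 10 were higher and 1 lower untreated, and 2 were higher and 3 lower under IL-22. Most of the 10 lay lower in dIEC, with 2 above 0 in each comparison and a median log2 difference of -0.34 untreated and -0.32 treated. In untreated dIEC organoids Ddit3, which encodes CHOP, was lower by -0.98 ± 0.19 (edgeR adjusted p = 0.0016) while Slc7a11 was higher by 0.52 ± 0.12 (edgeR adjusted p = 0.00419).

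Upstream sequence was searched for 3 motifs in the 7 genes with a window in the RefSeq table, which holds none for Pla2g2a. The motifs were TTCNNNGAA (bound by STAT factors), TGATGNAA (bound by ATF4) and CTTTGA (a core bound by TCF/LEF factors), on both strands of the 250 bases before the RefSeq start. For Nupr1 that start is 5.391 kb inside the gene as GENCODE annotates it, so its whole window lies within the gene span given above, whereas the Ang4 window ends at the annotated start. Of 32851 upstream windows of all genes, 7.02% held TTCNNNGAA, 3.45% held TGATGNAA and 13.8% held CTTTGA. Ang4 and Nupr1 each held TTCNNNGAA once, beginning 192 and 128 bases before the RefSeq start, and only Nupr1 of the 7 held TGATGNAA, on the opposite strand 110 bases before that start. Mptx1 held CTTTGA 208 bases before its start, and Lyz1, Mmp7, Itln1 and Mptx2 held none of the 3. The windows of Ang4 (chr14:51773591-51773840, minus strand) and Nupr1 (chr7:126625471-126625720, minus strand) are shown because they hold the same STAT letters while 1 gene rose with IL-22 and the other did not pass, with capitals for the matches.
Ang4: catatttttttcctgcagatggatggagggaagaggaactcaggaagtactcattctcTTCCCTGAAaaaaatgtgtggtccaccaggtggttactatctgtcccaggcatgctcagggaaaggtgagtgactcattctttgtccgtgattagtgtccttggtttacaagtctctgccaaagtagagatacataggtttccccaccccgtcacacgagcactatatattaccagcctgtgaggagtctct
Nupr1: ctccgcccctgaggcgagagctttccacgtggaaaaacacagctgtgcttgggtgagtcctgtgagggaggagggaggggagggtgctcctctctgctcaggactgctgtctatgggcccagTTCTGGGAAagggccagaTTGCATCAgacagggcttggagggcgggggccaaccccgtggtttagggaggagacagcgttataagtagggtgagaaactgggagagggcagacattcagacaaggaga

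Levels were compared between genes as CPM per kilobase of exon. In untreated fl/fl organoids the order was Lyz1 (1682 ± 298, SD, n = 4), Itln1 (977 ± 60.9), Mmp7 (233 ± 41.9), Ang4 (177 ± 57.5), Pla2g2a (33.0 ± 7.22), Nupr1 (15.8 ± 5.05), Mptx2 (10.8 ± 2.83) and Mptx1 (1.07 ± 0.459). The cultures of Mmp7 and Ang4 overlapped, as did those of Nupr1 and Mptx2, and the other neighbours did not. On this scale Lyz1 ranked 12 and Itln1 ranked 32 among 12559 tested genes. Under IL-22 in fl/fl organoids Mmp7 reached 714 ± 93.6 CPM per kilobase and moved from rank 219 to 59, and Mptx2 passed Nupr1. The exon length used for Nupr1, 2514 bases, is that of a gene model starting 5.391 kb before its RefSeq start. Its place in the order rests on that model, and in CPM Nupr1 stayed above Mptx2 there (94.1 against 53.7).

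In untreated dIEC organoids the order of the 8 levels per kilobase was the same as in untreated fl/fl, from Lyz1 at 1364 ± 148 down to Mptx2 at 0.889 ± 0.394 and Mptx1 at 0.225 ± 0.284, and these last 2 overlapped. Under IL-22 in dIEC organoids Pla2g2a (169 ± 66.2) stood above Ang4 (77.7 ± 24.0), with overlap. Lyz1 made up 57.5% of the summed CPM of the 8 genes in untreated fl/fl organoids and 44.7% under IL-22, while the share of Mmp7 went from 6.73% to 16.8%. In dIEC organoids these shares were 64.6% and 53.9% for Lyz1 and 5.91% and 14.3% for Mmp7.

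**Figure D4:**
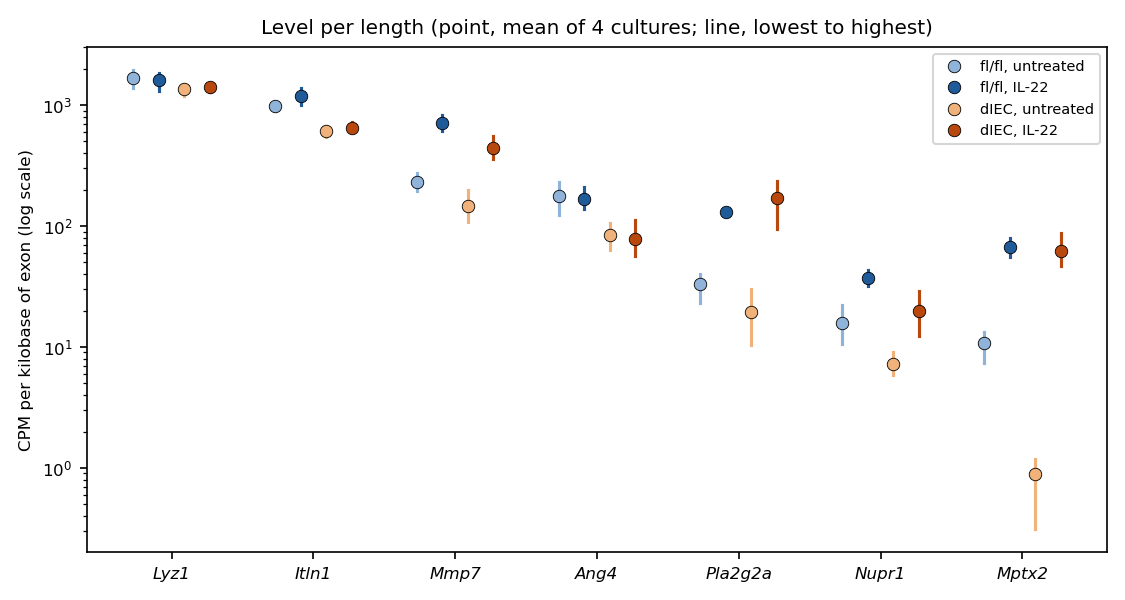
CPM per kilobase of exon on a log axis for the 7 tested genes in the 4 groups, with points for the mean of 4 cultures and lines from the lowest to the highest culture. Lyz1 and Itln1 stay above the rest in every group, and Mptx2 spans the widest range, from 0.889 in untreated dIEC to 67.6 in IL-22-treated fl/fl organoids.

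Correlations across the 16 cultures are given as a description, since cultures share lines, treatments and genotypes. Mmp7, Pla2g2a, Mptx2 and Nupr1 correlated with each other at r = 0.832 to 0.949 in log2 CPM, and Lyz1, Ang4 and Itln1 at r = 0.690 to 0.890. Between these sets r ran up to 0.748 (Itln1 and Nupr1), so they were not cleanly separated. After the group means were removed, Ang4 and Nupr1 correlated at r = 0.910, Ang4 and Mmp7 at r = 0.887 and Mmp7 and Nupr1 at r = 0.809. Mptx2 stood apart in this measure, with r between -0.392 and 0.256 against the other 6 genes. Its 1 to 4 counts per untreated dIEC culture add counting error to these values. What remains after the group means are removed includes differences between the lines of a group. The genes most like each by r over the 16 cultures were Abhd11os, Tpt1 and Tvp23b for Lyz1 (r = 0.888 or higher), Samd5, Pim3 and Tnfaip3 for Pla2g2a (0.970 to 0.976), and Bsg, 2410006H16Rik and Rap1gap for Ang4 (0.954 to 0.969). They were AV064505, Lrrfip1 and Gcnt3 for Mmp7 (0.979 to 0.990), Fhl2, Defa24 and Defa23 for Itln1 (0.955 to 0.976), Pdxdc1 and Tmc5 for Mptx2 (0.957 and 0.956), and Gfpt1, Ahnak and Slc44a4 for Nupr1 (0.972 to 0.978).

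The alpha-defensins of the same granules were lower in dIEC organoids for 9 of 12 tested genes untreated and 11 of 12 under IL-22, with 0 higher, and a median log2 difference of -2.46 and -2.17. With IL-22, 1 of 12 passed as higher in fl/fl and 2 of 12 in dIEC organoids and 0 as lower, where 4 of the 7 genes described here rose in each. Most of the 12 had a positive log2 fold change, 10 in fl/fl (median 0.45) and 9 in dIEC organoids (median 0.58). Of 18 tested genes for Paneth cell fate and niche function, 4 rose and 2 fell with IL-22 in fl/fl organoids, and 3 rose and 2 fell in dIEC organoids. Xbp1, a factor needed for secretory capacity, rose by 1.32 ± 0.08 in fl/fl and 1.22 ± 0.08 in dIEC organoids on the log2 scale (edgeR adjusted p = 6.7e-10 and 1.98e-09). The lipase gene Pnliprp2 fell in both, with log2 fold changes of -1.06 and -2.14 (edgeR adjusted p = 0.00995 and 0.00163). In untreated dIEC organoids 3 of the 18 were lower and 0 higher, among them Atoh1, the factor that sets secretory fate, at -0.76 ± 0.16 (edgeR adjusted p = 0.00267), and under IL-22 4 were lower and 0 higher, with Spdef at -0.94 ± 0.20 (edgeR adjusted p = 0.00147).

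Markers of other cell types moved with both factors. Of 8 goblet markers, 4 were lower and 0 higher in untreated dIEC organoids and 4 lower and 1 higher under IL-22, and their summed level was 1506 to 2013 CPM in untreated dIEC against 2116 to 3344 CPM in untreated fl/fl cultures, and 1073 to 1718 against 2043 to 3044 CPM under IL-22. Of 8 enteroendocrine markers, 1 was lower and 0 higher in untreated dIEC organoids, and 3 were lower and 0 higher under IL-22. Their summed level was 227 to 376 CPM in untreated dIEC and 369 to 622 CPM in untreated fl/fl cultures, and these ranges overlapped. Of 8 enterocyte markers, 7 fell and 0 rose with IL-22 in fl/fl organoids and 5 fell and 0 rose in dIEC organoids. Their sum went from 4868 to 5929 CPM untreated to 1431 to 1815 CPM treated in fl/fl, and from 4745 to 6397 CPM to 1465 to 2693 CPM in dIEC cultures. Of 7 stem cell markers, 3 fell and 1 rose with IL-22 in fl/fl and 5 fell and 1 rose in dIEC organoids. Between genotypes, 3 were higher and 0 lower in untreated dIEC organoids, and 3 were higher and 1 (Lgr5) lower under IL-22. The 7 tuft cell markers summed to 13.0 to 35.7 CPM over all cultures. The part of these shifts in the levels of the 8 genes was not tested.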

How the data were processed

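RNA sequencing read counts per gene were deposited as 1 table of 16 cultures. The authors trimmed reads with cutadapt, aligned them with TopHat2 to the mouse genome (mm10, GRCm38), counted reads per gene with HTSeq and tested with DESeq2. The annotation release and the strand setting of the counting are not given in the sources used here, and the sources differ on the library kit. Of all reads in the table, 36.3% to 38.3% were assigned to genes, 38.0% to 40.1% to no feature and 21.5% to 24.2% were not uniquely aligned, and only reads on genes entered library sizes (2135000 to 5574860 per culture). Low counts therefore limit Mptx1 and untreated Mptx2, and intervals cover counting error only.

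Groups and line numbers were taken from the sample labels. The counts were analysed with edgeR 4.0.16 (R 4.3.3): genes were filtered on low counts, TMM factors were computed, and 1 quasi-likelihood fit of the 4 group means gave all comparisons, with Benjamini-Hochberg adjustment over 12559 genes and a threshold of 0.01. Log2 CPM used a prior count of 2, and CPM per kilobase used exon length. Mptx1 was compared by exact permutation. The fit was tested on simulated data drawn without any difference between lines, so that test does not bear on the spread between lines. Alternatives were DESeq2 1.42.0, RLE factors, no filter, a threshold of 0.05, cultures of a line summed, limma-voom (limma 3.58.1) with line as a random effect (correlation 0.261), organoid line as a replicate block, and leaving out each culture or line. Cultures with the same number in the labels were taken to come from 1 organoid line, which the labels do not state: their deviations from group means correlated at 0.263 to 0.438 (fl/fl) and 0.0563 to 0.321 (dIEC), against -0.435 to -0.218 and -0.352 to -0.0779 between lines. Lines are nested in genotype, so the block applies to IL-22 effects and their difference only.

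The members and lists were chosen with earlier results of these data known. All 8 genes are named, with the relatives of each, at most 4 genes per list chosen by size of change among those past the threshold, and the 3 genes most like each tested member, of which 1 is not reported here. Upstream sequences are from RefSeq (GRCm38.p6), which gave a window for 7 of the 8 genes.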

Additional observations from a re-analysis of the deposited data

Results flagged for a closer look

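The IL-22 effect on Mptx2 differed between genotypes by 3.44 on the log2 scale, larger in dIEC than in fl/fl organoids. It is listed because the test of the difference itself passed the threshold (edgeR adjusted p = 0.00958). It passed in 7 of 27 alternatives run and failed in 20, among them summed lines (edgeR adjusted p = 0.993) and line as a random effect (limma-voom adjusted p = 0.0746). The 7 include the looser threshold of 0.05 on the same fit, where a pass was certain. Over 29 sets of 4 cultures examined, no culture stood apart from the other cultures of its group by Dixon's criterion.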

How the results depend on the processing

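The rises of Mmp7, Pla2g2a and Mptx2 with IL-22 kept their direction and their call in both genotypes under every alternative run, and that of Nupr1 under all but the summed lines. With the cultures of a line summed, the genes described here that passed were 0 in untreated dIEC against fl/fl, 1 under IL-22 and 0 for the difference between IL-22 effects, and all genes higher and lower were 353 and 186 for IL-22 in fl/fl, 375 and 256 in dIEC, 0 and 0 for the difference, 1 and 5 for untreated genotypes and 50 and 132 for treated genotypes. The difference between IL-22 effects passed for 2 of the genes described here with no filter, 2 with the replicate block, 1 by DESeq2, and 0 with RLE factors or limma-voom. Over all genes it passed for 2 higher and 2 lower by DESeq2, 0 higher with RLE, 31 and 49 with no filter, 2 and 3 by limma-voom, and 15 and 41 with the replicate block, which also gave 1957 lower genes in fl/fl and 1471 in dIEC for IL-22 and changed no other call than those given for Itln1 and Pla2g2a. Without the filter, edgeR's prior degrees of freedom were infinite (7.55 with it), 1 of the genes was higher under IL-22 in dIEC (Pla2g2a), and 748 genes were higher in untreated dIEC. By limma-voom, with the filter, 271 genes were higher in untreated dIEC. At 0.05 there were 2100 lower for IL-22 in fl/fl, 1901 higher and 1599 lower in dIEC, 1121 and 1438 between untreated genotypes and 2116 and 2052 between treated ones.

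None of the values that changed sign had passed the threshold. The difference between IL-22 effects for Ang4 was -0.028 by DESeq2, -0.0048 by limma-voom and -0.039 with the replicate block, and for Mmp7 it was 0.0050 by limma-voom. Over the fits without 1 culture or line it ran from -0.30 to 0.22 for Ang4, -0.16 to 0.15 for Mmp7, -0.041 to 0.26 for Lyz1 and 2.81 to 3.93 for Mptx2. The IL-22 effect then ran from -0.15 to 0.026 for Lyz1 and -0.29 to 0.23 for Ang4 in fl/fl, and from -0.11 to 0.20 and -0.31 to 0.048 in dIEC. The treated genotype difference ran from -0.18 to 0.76 for Pla2g2a and -0.51 to 0.19 for Mptx2. Over the same fits the genes described here numbered 2 to 6 lower in untreated dIEC, 1 to 5 lower and 0 to 1 higher under IL-22, and 0 to 1 for the difference. All genes ran from 584 to 1328 higher and 491 to 1163 lower for IL-22 in fl/fl, 540 to 1265 and 379 to 948 in dIEC, 0 to 1 and 0 to 4 for the difference, 109 to 685 and 329 to 941 between untreated genotypes, and 398 to 1356 and 555 to 1314 between treated ones. The causes were not tested.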
